A study of Mus musculus with 6 samples.

Results

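The 9 genes described here encode neurotrophic factors of the neurotrophin, GDNF and CNTF families and their receptors. They were chosen by symbol, with earlier results of these data known. All 9 were found among the 43432 gene identifiers of the count tables. They are the ligands Bdnf, Ntf3, Gdnf and Cntf, and the receptors Ntrk2, Ntrk3, Ngfr, Gfra1 and Cntfr. All mice were wildtype C57BL/6 and the tissue was spinal cord. In the injured group (SCI, 3 mice) an Infinite Horizon device had contused the cord on 1 side at cervical level 5 with 50 kdyn, and tissue was taken 4 h later. In the control group (sham, 3 mice) bone was removed at that level without a contusion. The labels name no transgene or drug, and the sources used here do not give the age of the mice or when sham tissue was taken.

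Neurotrophic factors are proteins that support the survival, growth and synapses of neurons. BDNF signals through the receptor tyrosine kinase TrkB (gene Ntrk2) and neurotrophin-3 (Ntf3) through TrkC (Ntrk3), while the receptor p75 (Ngfr) binds all neurotrophins and their uncleaved precursors. GDNF, a survival factor of motor neurons, binds GFRα1 (Gfra1), which signals with the kinase RET, and CNTF, a factor of astrocytes and Schwann cells, binds CNTFRα (Cntfr), which signals with gp130 and the LIF receptor.

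The libraries held 3407176 to 11543633 counts and detected 17535 to 18442 genes. Levels are given as CPM, the counts of a gene scaled to the size of its library, with TMM factors that correct for composition. The libraries were primed at the 3′ end of transcripts, so these levels do not scale with transcript length. Markers of the labelled tissue were counted in all 6 libraries, with 8 of 8 astrocyte, 8 of 8 oligodendrocyte and 9 of 9 neuron markers above 0 in each. All 12 hepatocyte markers were also counted in each library and held 5.75% to 10.8% of counts, with the highest share in sham 2 and the lowest in sham 3. Hepatocyte marker sums overlapped between the groups (53087 to 120188 CPM in sham and 67305 to 78442 CPM in SCI). Blood cell marker sums did not overlap. Erythroid markers summed to 610 to 840 CPM in sham and 1584 to 4282 CPM in SCI, and neutrophil markers to 14.6 to 45.3 and 51.4 to 70.0 CPM. Single neutrophil markers were mixed: S100a8, S100a9 and Retnlg lay apart by group, while Ly6g, Camp, Ngp and Cxcr2 overlapped. Of the 5 neutrophil markers tested, 0 were called.

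The comparison asks how transcripts of these factors and receptors stand in the cord 4 h after contusion. Of the 9 genes, 7 were abundant enough to test, and 0 of them were called at an adjusted p under 0.05 by edgeR, a share to be read against the 0.929% of all 13560 tested genes that were called. A share that low would also give none of 7. At an unadjusted p under 0.05 the count was also 0 (7.38% of all tested genes), and the DESeq2 Wald test called 0 of the 7. The 2 genes below the filter had groups that did not overlap: Gdnf was counted 2 times in sham and 29 times in SCI, and Cntf 13 times in sham and 0 times in SCI. Of all 21524 genes with a count, 11.3% had groups that did not overlap, in either direction. Among 100 tested partners, 5 rose, among them Sh2b2, Egr1, Egr2 and Junb, where 0.885% of all tested genes rose. The partners were chosen with earlier results of these data known.

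Gdnf (ENSMUSG00000022144, chromosome 15, 7810846 to 7837575, plus strand, GRCm38) had low counts that lay apart by group. They numbered 1, 0 and 1 in sham libraries 1, 2 and 3, against 12, 9 and 8 in SCI libraries 1, 2 and 3. In CPM these are 0.131, 0 and 0.271 in sham and 1.45, 1.30 and 1.59 in SCI. Every SCI library lay above every sham library. The summed counts of 2 and 29 give a ratio of 16.3 per total counts, with a 95% counting interval of 4.12 to 141 that covers counting error only. Without sham 2, the deepest library, which held no Gdnf count, the ratio was 7.94, and without sham 3 it was 27.6. The gene was too low for the filter on low counts (edgeR's filterByExpr) and was not among the 13560 genes tested. Without that filter its log2 fold change was 3.65 ± 1.08 (SE) and did not pass edgeR's quasi-likelihood test (adjusted p = 0.0602). Of the 21524 genes tested without the filter, 1.04% were called and 6.29% had every SCI library above every sham library. The adjusted p was 0.0415 with limma voom, the setting under which Gdnf passed, and 0.271 with the DESeq2 Wald test. It ranged from 0.0578 to 0.341 when each library was left out in turn, and the log2 fold change from 2.86 to 4.31. The blood cell marker sums above also lay apart by group, and the part of blood cell RNA in the Gdnf counts was not tested.

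Cntf (ENSMUSG00000079415, chromosome 19, 12763660 to 12765632, minus strand) showed the opposite arrangement, also at low counts. It had 7, 5 and 1 counts in the sham libraries and no count in any SCI library. In CPM the sham values were 0.919, 0.481 and 0.271, so the groups did not overlap, an arrangement with SCI below sham that 5.02% of the 21524 genes showed. The ratio of summed counts, SCI over sham per total counts, was 0 with a 95% counting interval up to 0.368. Without sham 1, which held 7 of the 13 counts, that limit was 0.632, and without SCI 1 it was 0.623. Cntf also failed the filter and did not pass without it (edgeR adjusted p = 0.272). The adjusted p without the filter was between 0.248 and 0.723 when each library was left out in turn. The gene lies wholly inside Zfp91, on the same strand, and shares its 3′ end with a Zfp91 transcript in GENCODE M21. Reads there cannot be assigned to either gene with certainty. Zfp91, a zinc finger protein gene, was counted at 1252, 2064 and 688 reads in sham and 1429, 999 and 802 in SCI, with a log2 fold change of -0.21 ± 0.18 (SE).

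The promoter sequences of these ligands are shown because Gdnf and Cntf were the members whose groups did not overlap, with Bdnf, whose promoters are a textbook case of control by neuronal activity, beside them. Each is the 250 bases before a transcription start, 5′ to 3′, from RefSeq on GRCm38.p6. Capitals mark TGACGTG, a variant of the cyclic AMP response element, or TGANTCA, the AP-1 element, on either strand.
Gdnf, chr15:7809798-7810047, plus strand: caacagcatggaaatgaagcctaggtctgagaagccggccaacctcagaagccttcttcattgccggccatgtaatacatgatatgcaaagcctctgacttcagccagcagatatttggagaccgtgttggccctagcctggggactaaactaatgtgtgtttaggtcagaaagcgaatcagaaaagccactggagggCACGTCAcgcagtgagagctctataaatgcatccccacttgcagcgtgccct
Bdnf, chr2:109692186-109692435, plus strand: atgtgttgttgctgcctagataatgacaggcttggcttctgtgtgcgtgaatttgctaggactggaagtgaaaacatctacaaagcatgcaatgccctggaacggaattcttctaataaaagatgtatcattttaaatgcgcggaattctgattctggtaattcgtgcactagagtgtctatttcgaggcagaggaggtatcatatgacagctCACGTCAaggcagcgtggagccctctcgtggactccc
Cntf, chr19:12765633-12765882, minus strand: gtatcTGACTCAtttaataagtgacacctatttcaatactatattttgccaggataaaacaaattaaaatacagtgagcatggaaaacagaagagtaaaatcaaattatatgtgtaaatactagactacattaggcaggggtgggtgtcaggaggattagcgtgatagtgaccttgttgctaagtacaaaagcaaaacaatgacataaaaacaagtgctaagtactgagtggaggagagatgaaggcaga
The Gdnf and Bdnf windows both hold the letters CACGTCA, the reverse complement of TGACGTG, beginning 52 bases before the start in Gdnf and 37 bases before it in Bdnf. TGACGTG was found in 1.65% of the 32851 promoter windows searched. It was searched after these windows were seen to share it, so the match is a description of these letters. TGANTCA was present in the Cntf window, 245 bases before the start, and in 6.75% of all windows. The full element TGACGTCA (1.55% of windows) and the EGR element GCGNGGGCG (4.70% of windows) were in none of the 3 windows. Of 2 Gdnf and 7 Bdnf windows in the table, 1 each held TGACGTG, and those are the ones shown; the other windows of both genes lack it. A Bdnf window that is not shown holds TGANTCA, 152 bases before its start. GENCODE starts the Gdnf gene at position 7810846, downstream of the start used in this window, and lists 11 coding Bdnf transcripts from 9 starts that share 1 3′ end, so the counts pool every Bdnf promoter.

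Bdnf (ENSMUSG00000048482, chromosome 2, 109674700 to 109727007, plus strand), the ligand of TrkB, was the most abundant of the 4 ligands. The sham libraries held 4.20, 5.30 and 4.88 CPM and the SCI libraries 4.23, 6.64 and 8.72 CPM. SCI 2 and SCI 3 were above all sham libraries, SCI 1 lay among them, and the groups overlapped. The log2 fold change was 0.42 ± 0.33 (SE) with a 95% interval of -0.28 to 1.12, and it did not pass (edgeR adjusted p = 0.877). A doubling of Bdnf therefore lies inside the interval. Leaving out each library in turn gave log2 values of 0.16 (without SCI 3) to 0.67 (without SCI 1).

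Ntf3 (ENSMUSG00000049107, chromosome 6, 126101412 to 126166910, minus strand), the TrkC ligand, was lower, at 2.23, 2.41 and 1.08 CPM in sham and 3.14, 1.73 and 1.78 CPM in SCI. The groups overlapped, with the highest value in SCI 1 and the lowest in sham 3. Its log2 fold change was 0.16 ± 0.47 (SE; 95% interval -0.83 to 1.16; edgeR adjusted p = 0.980). The sign turned without SCI 1 (-0.19) and without sham 3 (-0.04). Its counts ran from 4 to 26 per library.

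**Figure D1:**
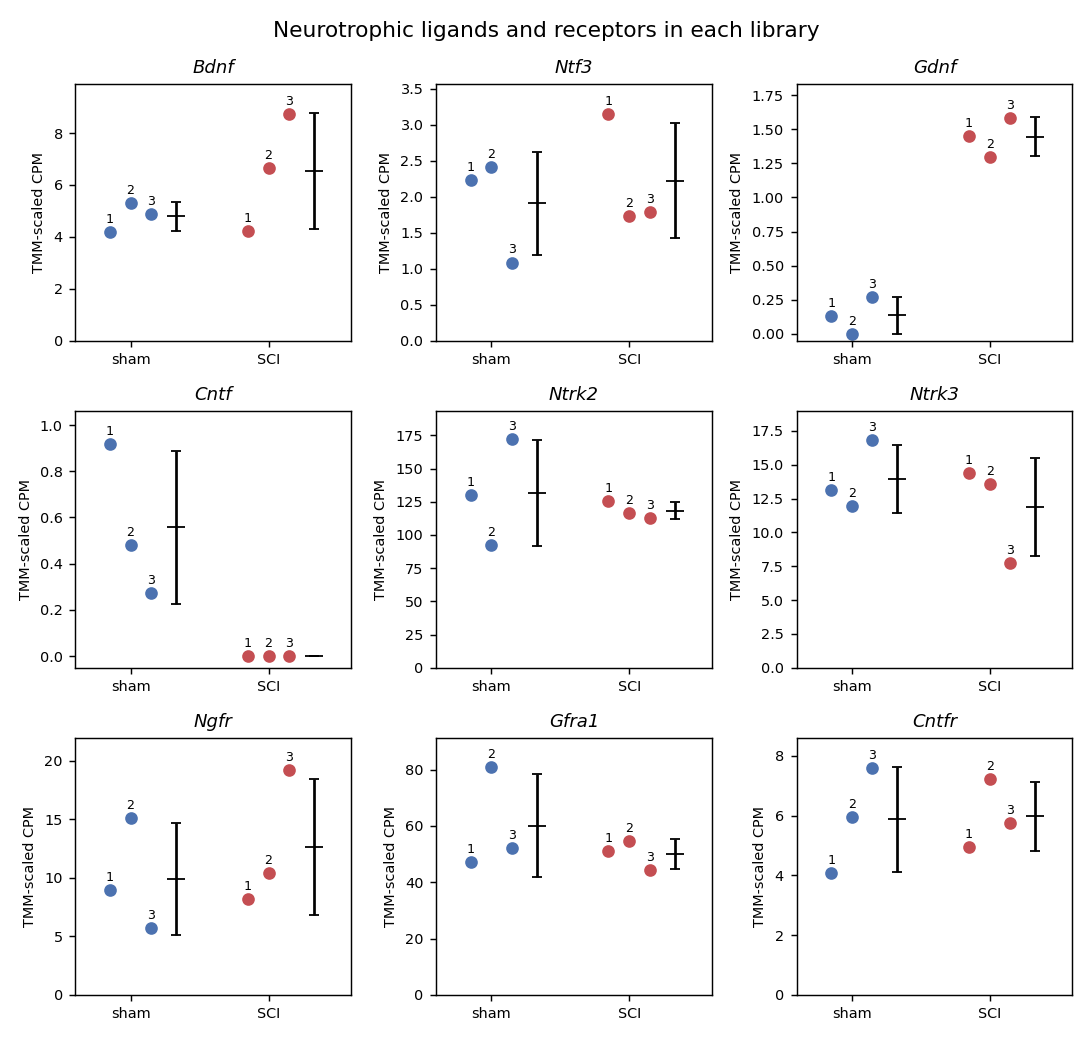
TMM-scaled CPM of each ligand and receptor gene (vertical axes, linear) in 3 sham and 3 SCI libraries, with the replicate number above each point and the group mean ± SD in black. Gdnf (0 to 0.271 CPM in sham, 1.30 to 1.59 CPM in SCI) and Cntf (no count in SCI) have groups that do not overlap, and the other 7 genes have groups that do.

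Among the receptors, Ntrk2 (ENSMUSG00000055254, chromosome 13, 58806569 to 59133970, plus strand) was the most abundant of the 9 genes. This gene encodes full-length TrkB, found in neurons, and truncated forms that lack the kinase, found mainly in astrocytes. Ntrk2 was at 130.2, 92.6 and 172 CPM in sham and at 126, 116 and 113 CPM in SCI. All 3 SCI values fell between the lowest and the highest sham value. Its log2 fold change was -0.15 ± 0.22 (SE; edgeR adjusted p = 0.947), and the 95% interval of -0.61 to 0.31 leaves out a change of 2-fold in either direction. The sign turned without sham 3 (0.09). GENCODE lists 7 coding Ntrk2 transcripts with 6 different 3′ ends, and the gene counts do not separate them. Within sham, several marker sums had the same order of libraries as Ntrk2, lowest in sham 2 and highest in sham 3: the neuron markers at 5366, 4135 and 5995 CPM, the astrocyte markers at 2603, 2141 and 2940 CPM and the oligodendrocyte markers at 7195, 5893 and 7961 CPM in sham 1, 2 and 3. Of the single astrocyte markers, Slc1a2 (1257, 923 and 1562 CPM), Aqp4, Slc1a3, Slc4a4 and Atp1b2 followed this order. Gfap (318, 265 and 280 CPM) and Gja1 were lowest in sham 2 but highest in sham 1. Aldh1l1 ran the other way (157, 202 and 127 CPM). Within SCI the sums were mixed. The astrocyte sum, at 2600, 2510 and 2510 CPM in SCI 1, 2 and 3, was highest in SCI 1, as was Ntrk2. The neuron sum (4739, 4634 and 4755 CPM) was highest in SCI 3, where Ntrk2 was lowest. The oligodendrocyte sum (7698, 9243 and 5477 CPM) was highest in SCI 2. In bulk tissue, fewer cells of a type and less RNA per cell cannot be told apart, and the part of composition in the Ntrk2 spread was not tested.

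Ntrk3 (ENSMUSG00000059146, chromosome 7, 78175959 to 78738012, minus strand), the TrkC gene, was at 13.1, 11.9 and 16.8 CPM in sham and 14.4, 13.6 and 7.73 CPM in SCI. SCI 3 was the lowest of all libraries and the other SCI values lay within the sham range. The log2 fold change was -0.19 ± 0.26 (SE; 95% interval -0.75 to 0.37; edgeR adjusted p = 0.941), and without SCI 3 it was 0.02. Like Ntrk2, the gene has coding transcripts with 6 different 3′ ends, which the counts pool.

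Ngfr (ENSMUSG00000000120, chromosome 11, 95568818 to 95587735, minus strand), the p75 gene, varied the most among the 5 receptors, by 3.38-fold between libraries. It is known for its induction in Schwann cells after nerve injury. Its values were 8.93, 15.1 and 5.69 CPM in sham and 8.22, 10.4 and 19.2 CPM in SCI. The highest library was SCI 3 and the next was sham 2, so the groups overlapped. The coefficient of variation was 48.3% in sham and 46.2% in SCI. The log2 fold change was 0.26 ± 0.35 (SE; 95% interval -0.49 to 1.01; edgeR adjusted p = 0.939). Single libraries moved it, to 0.70 without sham 2 and to -0.16 without SCI 3, and the hepatocyte marker level as a covariate gave 0.56 (adjusted p = 0.514). Over the 7 Schwann cell markers, of which Pmp2 had no count and Egr2 was called, the summed level was 141 to 183 CPM in sham and 177 to 207 CPM in SCI, with its maximum in SCI 2 and its minimum in sham 3, the library with the lowest Ngfr. The part of nerve root or Schwann cell RNA in the Ngfr values was not tested.

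The p75 gene was also read against the TrkB gene as a ratio of counts within each library, which does not depend on scaling. The Ntrk2 counts pool full-length and truncated TrkB, so the ratio is of gene transcripts and not of signalling receptors. Ngfr counts were 6.85%, 16.3% and 3.31% of Ntrk2 counts in sham and 6.54%, 8.94% and 17.0% in SCI. The mean log2 ratio was -3.80 ± 1.15 in sham and -3.32 ± 0.70 in SCI (SD, n = 3 mice each). The difference of 0.48 was smaller than the spread within sham (exact two-sided permutation test, p = 0.6, where 3 against 3 cannot go below 0.1). It was -0.08 without sham 3 and 1.07 without sham 2.

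Gfra1 (ENSMUSG00000025089, chromosome 19, 58235604 to 58455909, minus strand), the binding subunit for GDNF, was the second most abundant member. It was at 47.3, 81.0 and 52.1 CPM in sham and at 51.0, 54.6 and 44.2 CPM in SCI. Sham 2 stood above the other 5 libraries, which lay between 44.2 and 54.6 CPM. The log2 fold change was -0.27 ± 0.21 (SE; 95% interval -0.72 to 0.18; edgeR adjusted p = 0.874), and without sham 2 it was 0.0049. Sham 2 was also the library with the highest hepatocyte markers, at 120188 CPM against 53087 to 78442 CPM in the others. Among the other 5 libraries, SCI 3 had the highest hepatocyte sum (78442 CPM) and the lowest Gfra1 (44.2 CPM). Single markers in that sum were mixed. Alb was at 27838 CPM in SCI 3 and higher, at 35302 CPM, in sham 1, and Fgb, Cyp2e1 and Cyp3a11 were also higher in sham 1. The other hepatocyte markers, among them Ttr (22199 CPM), were highest in SCI 3 of these libraries. Sham 3 had the lowest sum (53087 CPM) with Gfra1 at 52.1 CPM. With the hepatocyte level as a covariate the log2 fold change of Gfra1 was -0.16 (adjusted p = 0.742). The part of hepatocyte RNA in the Gfra1 values was not tested. Ret, the kinase that GFRα1 works with, averaged 28.1 ± 4.24 CPM (sham) and 24.3 ± 1.90 CPM (SCI; SD, n = 3 mice each; log2 fold change -0.20 ± 0.19, SE). The groups overlapped for both receptor genes and did not for the ligand Gdnf.

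Cntfr (ENSMUSG00000028444, chromosome 4, 41657498 to 41697089, minus strand), the binding subunit for CNTF, was at 4.07, 5.97 and 7.59 CPM in sham and 4.96, 7.22 and 5.75 CPM in SCI. The SCI values all lay within the sham range. The log2 fold change of 0.06 ± 0.32 (SE; 95% interval -0.63 to 0.74; edgeR adjusted p = 0.989) turned to -0.17 without sham 1 and -0.11 without SCI 2. Its signalling partners are in the list of other receptors. For Il6st, which encodes gp130, the means were 148 ± 37.5 CPM (sham) and 148 ± 5.08 CPM (SCI), and for Lifr 60.2 ± 3.61 and 44.1 ± 4.86 CPM (SD, n = 3 mice each). Every SCI value of Lifr lay below the sham values, as in 5.94% of all tested genes, and the difference did not pass (log2 fold change -0.45 ± 0.17, SE; edgeR adjusted p = 0.5003).

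**Figure D2:**
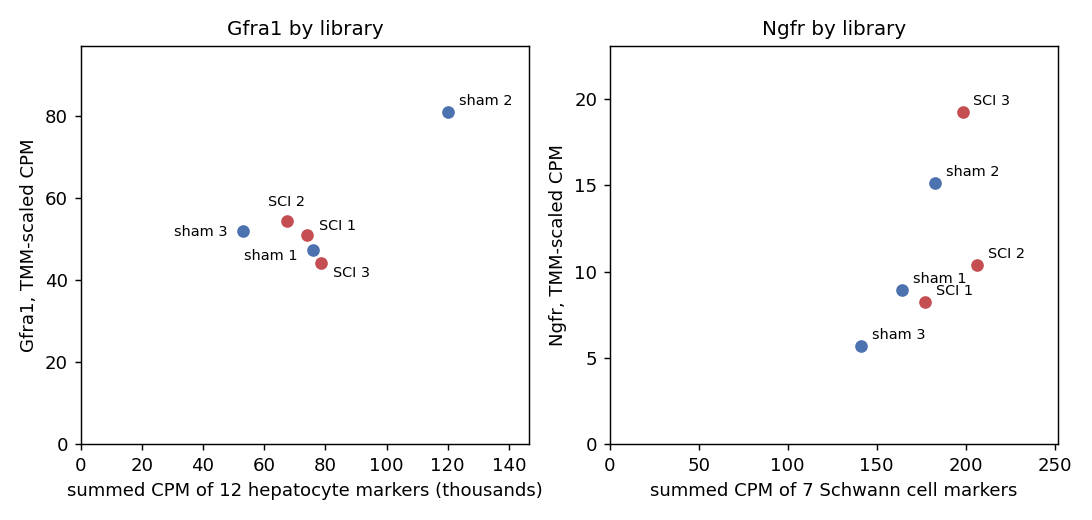
Left, Gfra1 level against the summed level of 12 hepatocyte markers; right, Ngfr level against the summed level of 7 Schwann cell markers, each point a library (blue sham, red SCI, linear axes from 0). Sham 2 stands apart on the left at 81.0 CPM of Gfra1. Among the other libraries on the left, SCI 3 has the highest marker sum, though not the highest Alb, and the lowest Gfra1. On the right sham 3 is lowest on both axes, while the highest Ngfr (SCI 3) and the highest marker sum (SCI 2) are in different libraries.

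Of the 7 genes tested, 4 had a positive and 3 a negative log2 fold change, with a median of 0.06 against -0.0025 over all tested genes. A missed test does not show equal levels, and the intervals differed in width. For 4 genes, Ntrk2, Ntrk3, Gfra1 and Cntfr, the 95% interval lay within a 2-fold change, and for 3, Bdnf, Ntf3 and Ngfr, it reached past 2-fold higher.

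**Figure D3:**
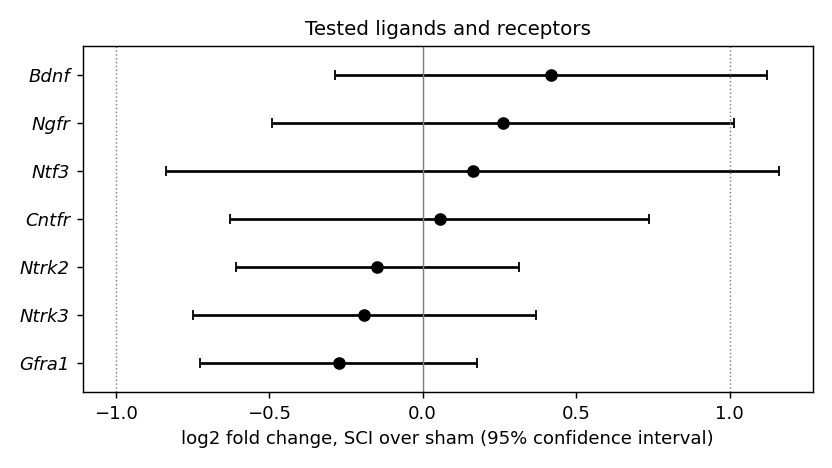
Log2 fold change of SCI over sham with its 95% confidence interval for the 7 genes tested, from edgeR's quasi-likelihood fit; dotted lines mark a 2-fold change in each direction. All 7 intervals include 0, and those of Bdnf, Ntf3 and Ngfr extend past a 2-fold increase.

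By mean level over the 6 libraries the order was Ntrk2, Gfra1, Ntrk3, Ngfr, Cntfr, Bdnf, Ntf3, Gdnf and Cntf, from 125 CPM down to 0.279 CPM. The library values of Ntrk2 lay apart from those of Gfra1, those of Gfra1 from those of Ntrk3, and those of Bdnf from those of Ntf3. Neighbours at the other places in this order overlapped, and 3 of those pairs changed places by group: Cntf was above Gdnf in sham, and Ngfr was above Ntrk3 and Bdnf above Cntfr in SCI. The genes most like Ntrk2 over the 6 libraries, by Pearson's r of log2 CPM among 10470 genes, were Pja2 (r = 0.9995), Kifap3 (r = 0.995) and Kat6b (r = 0.993). Those most like Gfra1 were Cpox, an enzyme of haem synthesis (r = 0.991), Aco1 (r = 0.989) and Txndc5 (r = 0.988). With so few libraries, which differ in depth and in hepatocyte share, 310 genes had r above 0.9 with Ntrk2 and 171 with Gfra1.

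The rest of the pathways was read from 125 genes in 7 lists, of which 100 were tested. Of these, 5 rose and 0 fell, where 0.885% and 0.0442% of all tested genes did. Their median log2 fold change was 0.06, and 59 of 100 were positive, against 49.7% of all tested genes. Of the 5 that rose, 3 are in the list of transcripts that Trk signalling can raise. The lists were chosen with earlier results of these data known, so these shares only describe the lists.

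Of 19 other neurotrophic ligands, 7 passed the filter and none was called (median log2 fold change -0.04). Igf1, an insulin-like growth factor that liver makes in quantity, was the most abundant, with 702 ± 272 CPM (sham) and 641 ± 84.1 CPM (SCI; SD, n = 3 mice each). Manf had a log2 fold change of -0.60 ± 0.28 and Vegfa, the vascular growth factor, of -0.30 ± 0.19 (SE; edgeR adjusted p = 0.680 and 0.825). Il6, a cytokine of the family to which CNTF belongs, had no count in sham and 5, 3 and 16 counts in the SCI libraries. Il6 failed the filter and was called without it (edgeR adjusted p = 0.00794), where 0.846% of genes were called as higher. SCI 3 held 16 of its 24 counts, and the call was lost without SCI 3 (edgeR adjusted p = 0.589), without sham 1 (0.0673) and without sham 2 (0.0659). It was chosen after its values were seen.

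Of 16 other receptors and co-receptors, 13 were tested and none was called. The smallest p was that of Osmr, the oncostatin M receptor, which pairs with gp130. It was at 0.263, 1.44 and 1.36 CPM in sham and 3.26, 5.92 and 2.97 CPM in SCI, with SCI above sham in all libraries as in 7.73% of tested genes. Its log2 fold change was 2.003 ± 0.55 (SE; edgeR adjusted p = 0.177), and it was called without the filter (adjusted p = 0.0120). Ncam1, an adhesion molecule that also binds GDNF, was the most abundant, with 272 ± 44.4 CPM (sham) and 297 ± 47.3 CPM (SCI; SD, n = 3 mice each).

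All 16 partners and effectors of p75 were tested and none was called (median log2 fold change 0.05). The most abundant, Rtn4, which encodes the axon growth inhibitor Nogo, had a log2 fold change of -0.15 ± 0.22. Arhgdia and Tnfrsf19, a receptor that can stand in for p75 in the Nogo complex, had values of 0.33 ± 0.18 and -0.35 ± 0.22 (SE; edgeR adjusted p = 0.745 and 0.812).

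Of 24 tested adaptors of Trk and RET receptors, 1 rose. Sh2b2, which encodes the adaptor APS that binds activated Trk and insulin receptors, was at 4.07, 3.76 and 4.07 CPM in sham and 13.2, 13.7 and 10.9 CPM in SCI. The groups lay far apart relative to their spread (log2 fold change 1.68 ± 0.26, SE; edgeR adjusted p = 0.00325). The call held without each single library (adjusted p = 0.00331 to 0.0299). Pik3r1, the most abundant adaptor, had a log2 fold change of 0.07 ± 0.18.

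The list of proneurotrophin processing had 12 tested genes with a median log2 fold change of 0.04. Its most abundant gene, Plg, which encodes plasminogen and is a product of liver, averaged 1473 ± 524 CPM (sham) and 1421 ± 211 CPM (SCI; SD, n = 3 mice each). Mmp3, a metalloproteinase, had no count in sham and 4, 8 and 7 counts in the SCI libraries (edgeR adjusted p = 0.0435 without the filter). That call was lost without any single library (edgeR adjusted p = 0.0527 to 0.251). It was chosen after its values were seen.

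Of 13 tested regulators of the Bdnf gene, none was called. Nfkb1 had a log2 fold change of 1.07 ± 0.37 and Mef2c, an activity-dependent transcription factor, of -0.50 ± 0.18 (SE; edgeR adjusted p = 0.397 and 0.442). In both genes the groups did not overlap, as in 13.7% of all tested genes. Crebbp, the most abundant, had a value of -0.02 ± 0.17.

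Among transcripts that Trk signalling can raise, 3 of 15 tested members rose and 0 fell. These genes also answer to many other stimuli. Egr1 was at 17.9, 21.1 and 32.0 CPM in sham and 123, 83.0 and 125 CPM in SCI (log2 fold change 2.25 ± 0.24, SE; edgeR adjusted p = 0.000132). Egr2 had 2, 6 and 0 counts in sham and 47, 31 and 14 in SCI, and Junb rose from 16.5 ± 6.37 to 47.9 ± 7.15 CPM (SD, n = 3 mice each). The call of Egr2 was lost without sham 1 (edgeR adjusted p = 0.0581) or SCI 1 (0.0502) and that of Junb without sham 1 (0.0542). Fos, the most abundant member, had a log2 fold change of 0.79 ± 0.21 (SE; edgeR adjusted p = 0.140), and passed without the filter (adjusted p = 0.0158). It also passed without sham 2 (0.0224) and with the hepatocyte covariate (0.00243).

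**Figure D4:**
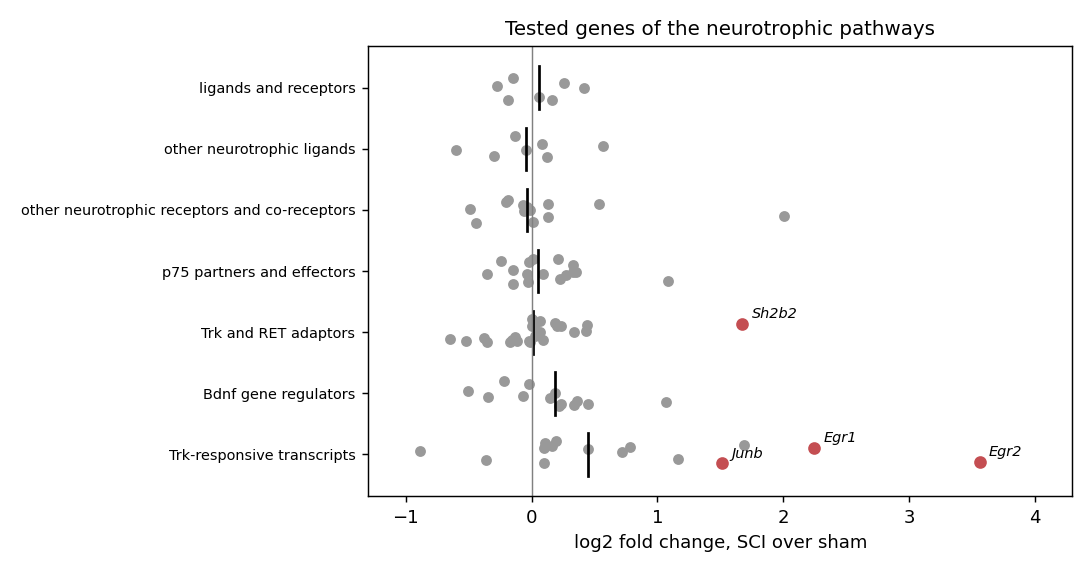
Log2 fold change of SCI over sham for each tested gene of the 9 ligand and receptor genes (top row, 7 tested) and of 6 of the pathway lists; red points are genes called at an adjusted p under 0.05 and black bars are medians. The red points, Sh2b2, Junb, Egr1 and Egr2, all lie on the side of SCI, and none is in the top row.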

How the data were processed

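Spinal cord RNA of 6 mice was measured. Per the labels' protocols, total RNA was made into Lexogen QuantSeq Forward libraries, and per the design text these took 1 µg of RNA and were read from 1 end over 50 bases. The authors deposited whole-number counts per Ensembl gene, not normalized; reads were aligned with STAR 2.7.2b to mm10 with Ensembl release 96 annotation per the design text, and DESeq2 1.24.0 is among the tools in the submitters' processing notes. The sources used here do not give the counting tool, its strand setting or any use of molecular identifiers, so reads of overlapping or antisense genes are uncertain, and intervals and floors cover counting error only. A floor of 3 counts corresponded to 0.260 to 0.880 CPM.

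Symbols were matched to 42462 of 43432 identifiers. Genes passing filterByExpr by group (13560 of 21524 with at least 1 count) were scaled by TMM and tested with edgeR's robust quasi-likelihood F test (edgeR 4.0.16, R 4.3.3) over all 6 libraries without covariates, with Benjamini-Hochberg adjustment over all genes tested and calls at an adjusted p under 0.05. Standard errors were derived from F, whose square root is the log2 fold change in units of its error. Within each group, libraries were further apart than sampling allows (chi-square per degree of freedom 6.97 to 38.0) and were counted as separate mice, as the design text states. Alternatives were DESeq2 1.42.0 size factors and Wald test, total counts, limma 3.58.1 voom, no filter, a stricter filter (at least 1 CPM in at least 3 libraries), a replicate block, a hepatocyte covariate and leaving out each library. The procedure was tested on simulated data.

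The 9 genes, the lists and the tests were chosen with earlier results of these data known. Named genes were all 9, and from each list those called, or else the 2 with the smallest p, with the most abundant. For the tested member with the smallest p and the most abundant member, the 3 most similar genes with a mean of at least 5 CPM were named, on log2(CPM + 0.5). Other names are said to be chosen after their values were seen, except Il6st, Ret and Zfp91, named as partners or neighbours of members, and marker genes. Results on some genes that this rule names are not reported here. Windows before RefSeq starts and GENCODE M21 positions are on GRCm38, and 8 of the 9 genes had a window.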

Additional observations from a re-analysis of the deposited data

How the results depend on the processing

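Of the 7 tested ligand and receptor genes, 0 were called under any of the 8 other settings or without any single library; Gdnf, tested without a filter and with limma voom (added after seeing the data), was the exception, with a log2 fold change of 3.34 (adjusted p = 0.0415). With a stricter filter, which Gdnf passed only through the 3 SCI libraries, where it is high, its adjusted p was 0.0835, and without a filter and with a replicate block it was 0.238. All genes called numbered 126, and 224 with no filter, 82 with the replicate block and 206 with the hepatocyte covariate, and between 63 (without sham 1) and 146 without single libraries. Pathway genes called numbered 5, and 10 with no filter and 3 to 6 without single libraries; Egr2 and Junb were not called without sham 1. Same-numbered sham and SCI libraries did not deviate together (correlations of -0.171, -0.119 and -0.263), so no pairing by number was seen. With 3 libraries per group these correlations cannot show whether the numbers pair the mice. With the replicate block 4 pathway genes were called, Sh2b2, Egr1, Egr2 and Junb. Without single libraries the log2 fold change ranged from -0.19 to 0.34 for Ntf3, -0.36 to 0.087 for Ntrk2, -0.35 to 0.018 for Ntrk3, -0.16 to 0.70 for Ngfr, -0.44 to 0.0049 for Gfra1 and -0.17 to 0.24 for Cntfr. It ranged from -0.38 to 0.19 for Igf1, -0.0077 to 0.23 for Ncam1, -0.025 to 0.13 for Pik3r1, -0.29 to 0.22 for Plg and -0.093 to 0.034 for Crebbp. The log2 ratio difference of Ngfr to Ntrk2 ranged from -0.083 to 1.07, and with the replicate block it is 0.48 by construction, since the pairs are balanced. With the hepatocyte covariate Igf1 was at 0.053 and Plg at 0.11, and Plg was at 0.045 with limma voom and 0.00034 with the replicate block. The causes of these turns of sign were not tested. Counts of 0 to 12 per library limit what can be said of Gdnf and Cntf.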
